A study of Mus musculus with 11 samples.

Results

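The genes described here are 9 enzymes that make cysteine in the liver or break it down: Cth and Cbs of transsulfuration, Cdo1 and Csad of the taurine branch, and Sqor, Ethe1, Tst, Mpst and Suox of sulfur oxidation. Every probe set that the platform annotation gave to exactly 1 of these symbols was taken, which gave 11 probe sets of the 22626 on the array that are not controls, and 9 of 12393 genes. RNA was measured on single-colour Affymetrix arrays in 6 Gsr-null livers and 5 wild-type (WT) livers. All 11 male mice had the C57BL/6J background, were 15 to 20 weeks old and were sampled between 2 and 4 in the afternoon, and the labels name no treatment. Gsr encodes glutathione reductase, which uses NADPH to return oxidised glutathione to its reduced form. The labels do not say how the null allele was made or whether it is limited to some tissues. The labels call the samples biological replicates, and p-values measure the spread between them. Samples are numbered here by the replicate number in their titles. The bracketed names in those titles count the Gsr-null livers from 4, so Gsr-null sample 1 is Gsr-null_4 there.

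Cysteine is the sulfur amino acid from which glutathione is built. The liver makes it from methionine: cystathionine beta-synthase (Cbs) joins homocysteine to serine and cystathionine gamma-lyase (Cth) splits the product into cysteine. Cysteine that is not used for glutathione or protein leaves mainly by oxidation: cysteine dioxygenase (Cdo1) makes cysteine sulfinate, and cysteine sulfinate decarboxylase (Csad) turns that into hypotaurine, the precursor of the taurine that mice attach to bile acids. A second route gives hydrogen sulfide, which mitochondria oxidise to thiosulfate and sulfate.

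Csad was the 1 member called at a limma adjusted p under 0.05. The sequence upstream of its outermost annotated start is shown, taken from RefSeq for GRCm38.p6 at chr15:102205053-102205302 on the minus strand. The run holds the 250 bases before the start, 5′ to 3′, and the capitals mark a match to TGACGT, the core bound by CREB and ATF factors, whose first base lies 54 bases before the start.
Csad: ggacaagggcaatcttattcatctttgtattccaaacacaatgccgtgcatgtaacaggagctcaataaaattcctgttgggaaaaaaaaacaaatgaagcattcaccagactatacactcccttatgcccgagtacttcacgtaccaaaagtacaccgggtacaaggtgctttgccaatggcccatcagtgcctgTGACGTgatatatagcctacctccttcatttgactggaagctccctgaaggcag
RefSeq lists 2 start windows of 300 bases for Csad, and the array does not show which is used in liver. TGACGT stood on either strand in 1 of these 2 windows and in 7.51% of all 32851 windows. The antioxidant response element core TGACNNNGC, bound by NRF2, stood in 0 of the 2 and in 12.4% of all windows, and the ATF4 element TGATGNAA in 0 of the 2 and in 3.97%. The table held 6 of the 9 members in 10 windows. Among these, TGACNNNGC stood in 1 window of Mpst, TGACGT also in Suox, and TGATGNAA in Sqor. The first 2 motifs share the letters TGAC and can overlap.

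The tissue label was checked against markers. All 8 hepatocyte markers, among them Alb and Apoa1, averaged 11.4 to 14.4 on the log2 scale. Of the 8, 0 were called between genotypes at a limma adjusted p under 0.05, beside 0.216% of all tested genes in each direction. The 8 differed, Gsr-null minus WT, by -0.11 to 0.034 on the log2 scale. Markers of cholangiocytes, neutrophils and lymphocytes each had a mean over the 11 samples of no more than 3.53, under the filter level of 4. Other cell types were present: marker means ran from 3.05 to 9.95 for Kupffer cells and macrophages. They ran from 3.30 to 8.94 for sinusoidal endothelium and from 2.27 to 10.1 for stellate cells and fibroblasts. Gsr itself (1421817_at) averaged 4.99 ± 0.207 (SD, n = 6) in Gsr-null and 6.82 ± 0.126 (SD, n = 5) in WT livers. Its second probe set (1421816_at) averaged 4.60 ± 0.421 (SD, n = 6) in Gsr-null and 6.43 ± 0.751 (SD, n = 5) in WT livers. Both Gsr-null means lay above the filter level of 4. The log2 gap between 3′ and 5′ control probe sets (mean of Gapdh and Actb), a sign of RNA integrity and labelling, divided the arrays into 2 sets that cross genotype. It was wide, 1.2 to 1.75, in 3 Gsr-null samples (4, 5 and 6) and 3 WT samples (1, 3 and 5). It was narrow, 0.544 to 0.703, in 3 Gsr-null samples (1, 2 and 3) and 2 WT samples (2 and 4). Differences within each set are given beside several members, and a part of the gap in any result was tested only by its use as a block or covariate.

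Of the 9 genes, 1 was called lower and 0 higher at a limma adjusted p under 0.05, where 0.216% of the 6022 tested genes were called lower and 0.216% higher. Groups did not overlap for 1 member, with all Gsr-null samples below, against 0.864% of tested genes, and for 0 members with all of them above, against 0.648%. An unadjusted p under 0.05 was reached by 2 members, Csad and Cth, against 8.78% of tested genes. The members were chosen with earlier results of these data known, so these counts are no test of the set. All 9 passed the filter, a log2 value above 4 in at least 5 samples. The median difference of the 9 genes was -0.048 on the log2 scale, beside -0.032 over all tested genes. The other 8 members differed by -0.21 to 0.41, and 0 of their 95% intervals overlapped that of Csad.

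**Figure D1:**
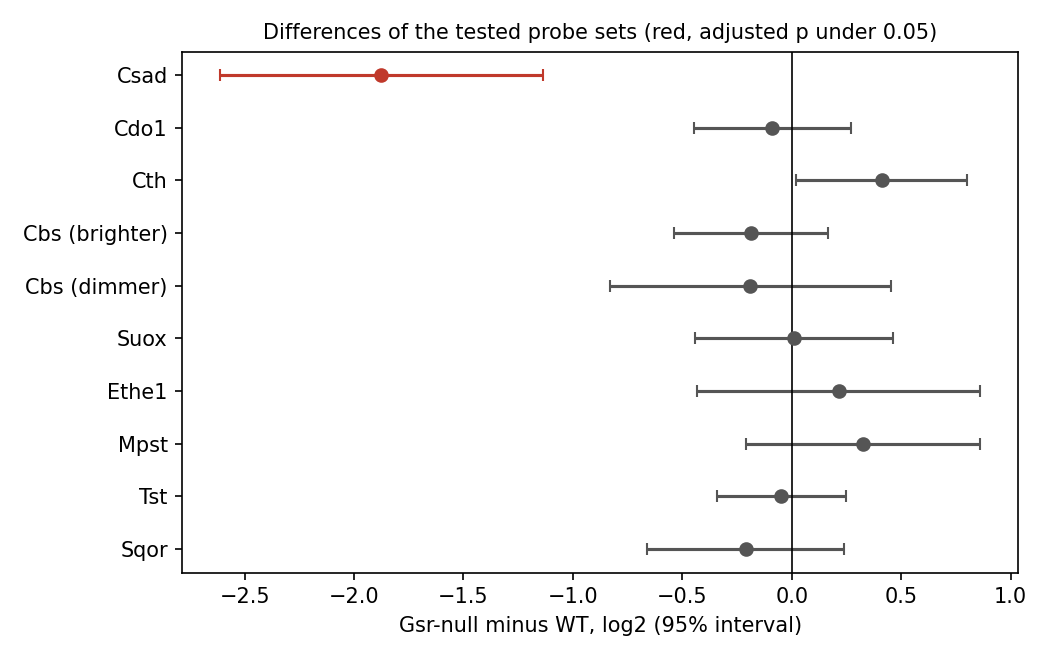
Difference in log2 expression, Gsr-null minus WT, for the 10 tested member probe sets (points) with 95% intervals (bars); Cbs has 2 probe sets. The interval of Csad lies between -2.61 and -1.14, and those of the other 8 genes lie above it.

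The taurine branch held the one large difference. Csad (probe set 1427981_a_at, chromosome 15) read 7.59, 9.96, 8.44, 8.69, 9.12 and 8.35 in Gsr-null samples 1 to 6, against 10.74, 10.24, 10.44, 11.01 and 10.41 in WT samples 1 to 5, on the log2 scale. Every Gsr-null sample lay below every WT sample, and Gsr-null sample 2 came closest to WT while sample 1 was lowest. Csad averaged 8.69 ± 0.799 (SD, n = 6) in Gsr-null and 10.57 ± 0.305 (SD, n = 5) in WT livers. It fell by 1.87 (SE 0.338, limma adjusted p = 0.0373), a level 3.67-fold lower in Gsr-null livers with a 95% interval of 2.20 to 6.11. In bulk RNA, less transcript per cell and fewer cells that hold it cannot be told apart.

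The size of the fall in Csad was steadier than its call. It was -1.81 among samples with a wide 3′ to 5′ gap and -1.96 among those with a narrow one. The call was lost on leaving out any 1 of the 5 WT samples or of Gsr-null samples 3, 4, 5 and 6 (limma adjusted p = 0.0515 to 0.133), and held without Gsr-null sample 1 (0.041) or 2 (0.00718), with the difference between -2.13 and -1.65 throughout. It was also lost without a filter (0.0653), with the filter at 6 (0.0552), with array weights (0.0542) and with the 3′ to 5′ gap as a covariate (0.0572), but held with the wide and narrow gaps as a block (0.0467). A block on replicate number ended the call too (limma adjusted p = 0.251), though these numbers gave no sign of pairing. Gsr-null sample 1 also stood apart in 1 marker list: the summed level of the 5 neutrophil markers on the array was 7.69 there, 4.92 to 5.34 in the other Gsr-null samples and 4.89 to 5.14 in WT samples, and its part in the lowest Csad value was not tested beyond the omission of that sample.

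Cdo1, which makes the substrate of Csad, did not pass the test. The probe set 1448842_at (chromosome 18) read 12.05, 12.27, 12.05, 12.16, 12.05 and 11.68 in Gsr-null samples 1 to 6 and 11.71, 12.65, 11.96, 12.17 and 12.16 in WT samples 1 to 5. The 6 Gsr-null values lay within the WT span except for sample 6, just under it. The difference was -0.088 (SE 0.165, limma adjusted p = 0.979), and its 95% interval runs from a ratio of 0.734 to 1.21 in Gsr-null over WT livers. The difference was 0.018 among samples with a wide 3′ to 5′ gap and -0.29 among those with a narrow one. The direction turned with array weights, at 0.0027, and without WT sample 2, at 0.041, so Cdo1 has no direction here.

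**Figure D2:**
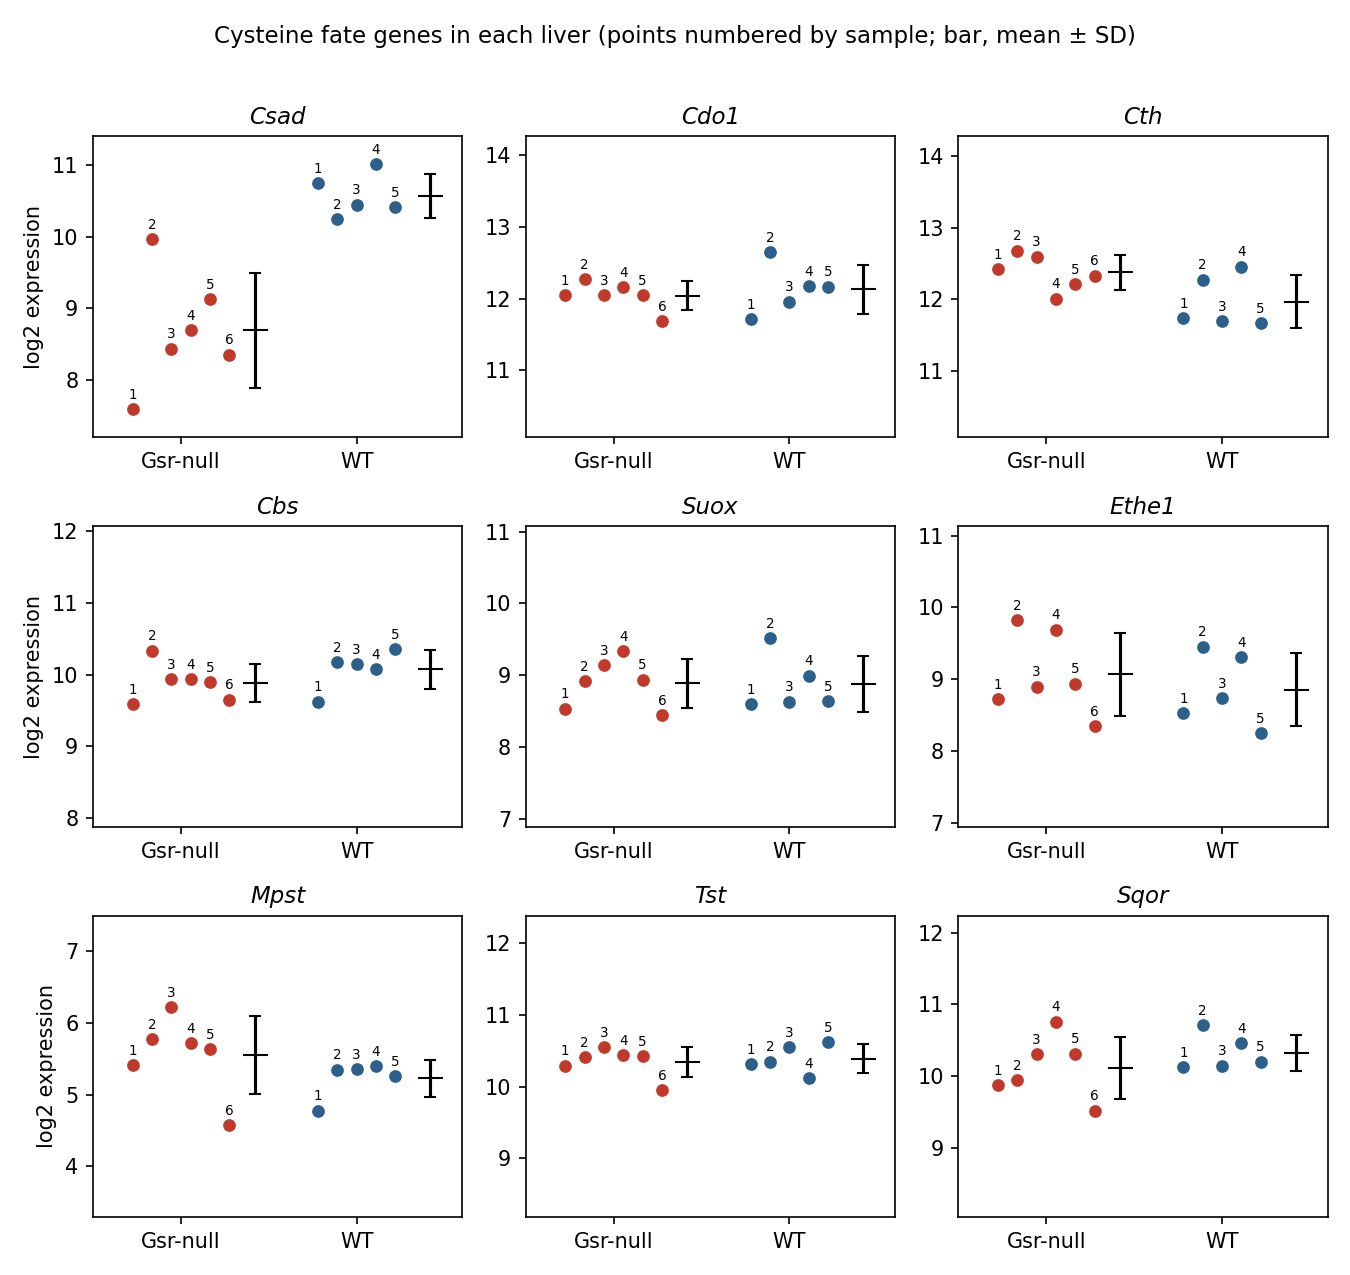
Log2 expression (vertical axis, the same span in each panel) of each gene's representative probe set in 6 Gsr-null livers (red) and 5 WT livers (blue); points carry the sample number, and black bars give the mean ± SD. Csad is the panel in which the genotypes do not overlap.

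The transsulfuration enzymes lay on opposite sides of 0, and neither passed the test. Cth (1426243_at, chromosome 3) read 12.42, 12.68, 12.59, 12.01, 12.21 and 12.33 in Gsr-null samples 1 to 6, against 11.73, 12.27, 11.69, 12.45 and 11.67 in WT samples 1 to 5. WT samples 1, 3 and 5, which have a wide 3′ to 5′ gap, lay below all 6 Gsr-null samples. WT samples 2 and 4, which have a narrow gap, lay among them. The Gsr-null mean was 12.37 ± 0.247 (SD, n = 6) and the WT mean 11.96 ± 0.369 (SD, n = 5). The difference of 0.41 (SE 0.18) had a limma adjusted p = 0.562 and an unadjusted p = 0.0419, with a 95% interval of 1.01 to 1.74 for Gsr-null over WT livers. It was 0.485 among samples with a wide 3′ to 5′ gap and 0.203 among those with a narrow one. With the wide and narrow gaps as a block it was 0.36 (SE 0.109, limma adjusted p = 0.241). With the gap as a covariate it was 0.28 (SE 0.114, limma adjusted p = 0.422).

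Cbs was measured by 2 probe sets, both of kinds that may bind several transcripts. The brighter one (1423844_s_at, chromosome 17) read 9.59 to 10.33 with a median of 9.91 in Gsr-null livers, and 9.63 to 10.36 with a median of 10.15 in WT livers. It differed by -0.19 (SE 0.162, limma adjusted p = 0.912). The dimmer one (1425623_a_at) read 7.74, 8.89, 7.88, 7.51, 7.76 and 7.36 in Gsr-null samples 1 to 6, against 7.19, 8.49, 7.88, 8.53 and 8.15 in WT samples 1 to 5. Gsr-null sample 2 was the highest of its group on both. The second probe set gave -0.19 (SE 0.294, limma adjusted p = 0.97), and the intervals of both hold 0. With 1 sample left out the brighter ranged from -0.30 to -0.12 and the dimmer from -0.40, without WT sample 1, to -0.070, without WT sample 4.

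In sulfide oxidation, no member passed the test. Sqor, sulfide:quinone oxidoreductase, takes the first mitochondrial step and passes electrons to coenzyme Q. Its brighter probe set (1420641_a_at, chromosome 2) read 9.87, 9.94, 10.30, 10.76, 10.31 and 9.52 in Gsr-null samples 1 to 6, against 10.12, 10.71, 10.15, 10.46 and 10.2 in WT samples 1 to 5. Gsr-null samples 1, 2 and 6 lay below every WT sample and Gsr-null sample 4 above them all. The difference was -0.21 (SE 0.207, limma adjusted p = 0.935), at 0.039 among samples with a wide 3′ to 5′ gap and -0.55 among those with a narrow one. With 1 sample left out it ranged from -0.34, without Gsr-null sample 4, to -0.091, without Gsr-null sample 6. The second probe set of Sqor (1430998_at) did not pass the filter and read 1.62 to 2.11 in Gsr-null and 1.84 to 2.08 in WT livers, near the floor of the arrays.

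Ethe1, the persulfide dioxygenase that follows Sqor, varied widely in each genotype. The probe set 1417203_at (chromosome 7) read 8.72, 9.82, 8.89, 9.69, 8.93 and 8.34 in Gsr-null samples 1 to 6, against 8.53, 9.45, 8.73, 9.30 and 8.25 in WT samples 1 to 5. Samples 2 and 4 were the highest of their group in each genotype, and the groups overlapped. The difference was 0.21 (SE 0.297, limma adjusted p = 0.965), and its interval of 0.741 to 1.82 for Gsr-null over WT livers was the widest of the 8 uncalled genes. It was 0.484 among samples with a wide 3′ to 5′ gap and -0.23 among those with a narrow one. With 1 sample left out it ranged from 0.063, without Gsr-null sample 2 or WT sample 5, to 0.363, without WT sample 2.

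The sulfurtransferases are neighbours on chromosome 15, where Csad also lies. Mpst makes persulfide from mercaptopyruvate, and Tst, also called rhodanese, transfers sulfur from thiosulfate. Mpst (1418356_at) read 5.41, 5.77, 6.22, 5.72, 5.63 and 4.57 in Gsr-null samples 1 to 6, against 4.78, 5.35, 5.36, 5.40 and 5.26 in WT samples 1 to 5. Of the Gsr-null samples 5 lay above every WT sample, and sample 6 lay below them all. The difference was 0.33 (SE 0.245, limma adjusted p = 0.867), and it was uncalled whichever sample was left out. It moved by over 1.5 times, to 0.52 without Gsr-null sample 6, 0.19 without Gsr-null sample 3 and 0.21 without WT sample 1.

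Tst (1448609_at) read 10.29, 10.41, 10.55, 10.44, 10.42 and 9.95 in Gsr-null samples 1 to 6 and 10.31, 10.35, 10.55, 10.12 and 10.62 in WT samples 1 to 5. Gsr-null sample 6 was again the lowest, and the other 5 lay inside the WT span. The difference was -0.048 (SE 0.135, limma adjusted p = 0.993), with an interval of 0.789 to 1.19 for Gsr-null over WT livers, the narrowest of the 9 genes. The difference was -0.23 among samples with a wide 3′ to 5′ gap and 0.18 among those with a narrow one. Its direction turned without Gsr-null sample 6 (0.031) or WT sample 5 (0.0097).

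Suox, the molybdenum enzyme that turns sulfite into sulfate, showed no settled direction. The probe set 1451339_at (chromosome 10) read 8.53, 8.92, 9.14, 9.33, 8.93 and 8.44 in Gsr-null samples 1 to 6, against 8.60, 9.51, 8.63, 8.99 and 8.64 in WT samples 1 to 5. The groups spanned nearly the same range. The difference was 0.0092 (SE 0.208, limma adjusted p = 0.999), at 0.281 among samples with a wide 3′ to 5′ gap and -0.39 among those with a narrow one. Its sign turned in 9 of 22 alternatives.

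Single samples were low or high across several of the 9 genes. Gsr-null sample 6 was the lowest of its group for 6 members and sample 2 the highest for 5. Among WT livers, sample 1 was the lowest for 5 members and sample 2 the highest for 4. The same counts were not made over all tested genes, so these do not show a trait of the members. In sample 6 of the Gsr-null group 9094 probe sets read above 4, against 9459 to 9551 in the rest of that group and 9377 to 9603 in WT samples.

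The profile of Csad over the 11 samples was closest to those of Gsr, H2-Aa and Cxcl9, by the root mean square difference after each gene was centred on its mean. That difference was 0.479 for Gsr, 0.532 for H2-Aa, an MHC class II chain of antigen-presenting cells, and 0.595 for Cxcl9, an interferon-induced chemokine. The median gene stood at 1.11. The 3 genes were picked for nearness in these same 11 samples, so their likeness to Csad follows from the choice and tests no link. The distance also holds the difference between genotypes, which was -1.87 for Csad and -1.83 for Gsr. H2-Aa read 6.54, 7.88, 7.13, 7.38, 7.88 and 6.67 in Gsr-null samples 1 to 6, against 8.06, 8.73, 8.30, 8.38 and 8.71 in WT samples 1 to 5. Its groups did not overlap, and samples 1 and 6 were lowest, but the difference of -1.19 (SE 0.259) had a limma adjusted p = 0.102. The H2-Aa probe set (1435290_x_at) is of a kind that may also bind related transcripts. Cxcl9 differed by -1.26 (SE 0.403, limma adjusted p = 0.334), with 3.30, 5.28, 3.92, 4.94, 5.00 and 3.01 in the Gsr-null livers, against 5.28, 5.95, 5.16, 5.33 and 5.79 in the WT livers. The summed Kupffer cell and macrophage markers ranged from 10.5 to 11.8 in Gsr-null and from 10.9 to 11.5 in WT samples. Of the 7 tested markers 0 were called, beside 0.216% of all tested genes in each direction. These 7 differed by -0.32 to 0.32. Gsr-null sample 1, the lowest in Csad, was the highest in that sum, and the part of immune cells in these profiles was not tested.

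**Figure D3:**
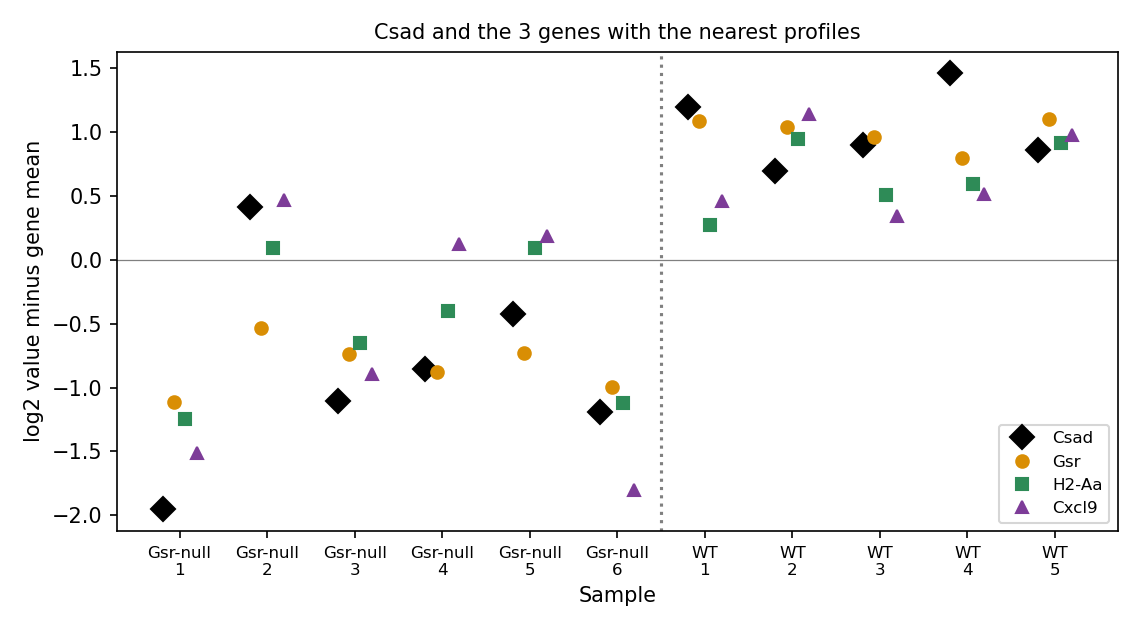
Log2 values minus each gene's mean over the 11 samples (vertical axis) for Csad and the 3 genes of nearest profile, in Gsr-null samples 1 to 6 and WT samples 1 to 5; symbols mark genes. In Gsr-null livers Csad, H2-Aa and Cxcl9 were all low in samples 1 and 6 and high in samples 2 and 5. The genes were chosen for nearness in these samples, so this likeness is no test.

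Genes that surround the pathway were read from 9 lists with 59 genes, of which 50 were on the array and 43 were tested. Among these 43, 1 was called lower and 0 higher, beside the 0.216% of all tested genes called in each direction, with 21 positive and 22 negative differences and a median of -0.013. The lists were chosen with earlier results of these data known, so these counts are no test of the lists. The called gene was Xdh, the xanthine dehydrogenase of purine breakdown, from the list of molybdenum enzymes other than Suox. Xdh read 6.99, 7.35, 7.40, 6.08, 6.22 and 6.30 in Gsr-null samples 1 to 6, against 9.22, 9.48, 9.11, 9.30 and 9.61 in WT samples 1 to 5. It fell by 2.62 (SE 0.255, limma adjusted p = 0.000448), and the other 4 genes of its list, the aldehyde oxidases Aox1 and Aox3 and the amidoxime reducing Mtarc1 and Mtarc2, were not called. Of the 4 tested genes that build the molybdenum cofactor 0 were called, with the smallest p for Mocos, which puts sulfur on the cofactor of Xdh and the aldehyde oxidases. Mocos differed by 0.24 (SE 0.177, limma adjusted p = 0.867).

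Partners of the taurine branch were also without a call. Of 7 genes that handle taurine or share cysteine sulfinate 4 were tested, with a median difference of 0.28. The smallest p belonged to Slc6a13, a transporter that carries taurine in mouse liver, at -0.37 (SE 0.199, limma adjusted p = 0.692). Of 7 genes of bile acid synthesis and taurine conjugation all were tested and 0 called, with 6 negative differences and a median of -0.11. Cyp8b1, the sterol hydroxylase of cholic acid synthesis, stood on the other side at 0.51 (SE 0.263, limma adjusted p = 0.679).

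Cysteine supply and other uses gave no call. The 8 tested genes of other cysteine users, which include Gclc, Gclm and Gss of glutathione synthesis, had a median of -0.0026. Nfs1, the cysteine desulfurase of iron-sulfur clusters, differed by 0.23 (SE 0.107, limma adjusted p = 0.616). Only 2 of 6 cystine and cysteine transport genes passed the filter, Slc3a1 at -0.14 (SE 0.659) and Slc3a2, and neither was called. Slc3a1 was -1.53 among samples with a wide 3′ to 5′ gap and 1.47 among those with a narrow one, which was not tested. The 6 tested genes from methionine to homocysteine had a median of 0.073, with Bhmt, which returns homocysteine to methionine, at 0.16 (SE 0.108, limma adjusted p = 0.831).

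The same held for the end of the sulfur route and for vitamin B6. Of 6 tested genes of sulfate activation and transport 0 were called, with a median of 0.14. Slc26a1, a sulfate transporter, differed by 0.56 (SE 0.216, limma adjusted p = 0.484), with 9.49 to 10.1 in Gsr-null and 8.40 to 9.55 in WT livers. Pdxk, the kinase that makes the pyridoxal phosphate used by Csad, Cth and Cbs, was the 1 tested gene of its list and differed by 0.21 (SE 0.226, limma adjusted p = 0.946).

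**Figure D4:**
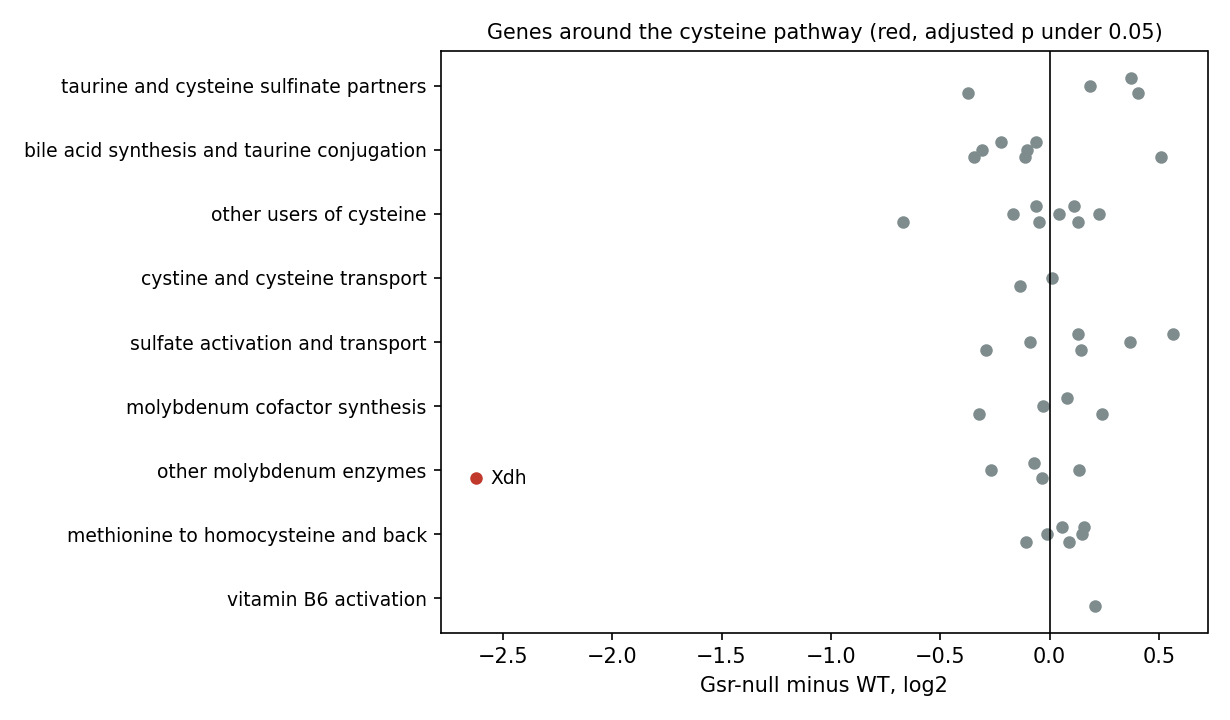
Difference in log2 expression, Gsr-null minus WT (horizontal axis), for the 43 tested genes of 9 lists around the cysteine pathway; each point is 1 gene. Xdh at -2.62 is the 1 called gene, and the others lie between -0.67 and 0.56.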

How the data were processed

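Liver RNA of 6 Gsr-null and 5 WT mice was labelled with biotin and hybridised to single-colour arrays, per the labels' protocols. The deposited log2 values, 1 per probe set and array, were made by the authors with GCRMA, per the submitters' processing notes. GCRMA takes the base content of probes into account for background, makes arrays comparable and joins probes into 1 value per probe set. No version or filter is named in the labels. The log2 scale was read from the range of the values.

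Of 22690 probe sets 64 controls were left out, and 20380 of the rest had 1 gene symbol, 691 several and 1555 none. Probe sets above 4 in at least 5 samples (9560) entered limma's lmFit and eBayes (limma 3.58.1, R 4.3.3), with Benjamini-Hochberg adjustment over all of them. A gene is represented by its tested probe set of highest mean. A probe set whose identifier ends in _s_at, _x_at or _a_at may also bind related transcripts. Among these are those of Csad, Cbs, H2-Aa, Slc26a1, Slc3a2 and Pdxk and the brighter one of Sqor. In simulated data with the WT means and the spreads within genotypes (9560 probe sets), 200 changes were planted in noise drawn independently for each value. The fit recovered 72% of changes of 1 and 94% of changes of 2 on the log2 scale. In the data only 16 probe sets were called higher and 21 lower, and fewer calls make the adjusted threshold stricter. Recovery in the data may therefore be lower. Plots were made in Python 3.11.15 (matplotlib 3.10.9).

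The members, lists, tests and alternatives were chosen with earlier results of these data known. Named genes are the members, Gsr, in each list every called gene or else that of smallest p, and the 3 genes of nearest profile to Csad. Aox1, Aox3, Mtarc1, Mtarc2, Slc3a2, Gclc, Gclm and Gss are named besides to say what their lists hold, Alb and Apoa1 as markers, Gapdh and Actb as control probe sets, and Lcn2 after its values were seen. The alternatives changed the filter, the scaling, the variance model, the weights of arrays, the blocks or the samples. RefSeq tables of GRCm38.p6 gave names, chromosomes and the sequence upstream of Csad. Since no build is named for the array, the only coordinates printed are those of that sequence. The number of arrays limits the precision of every value.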

Additional observations from a re-analysis of the deposited data

Results flagged for a closer look

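In 3 of the 22 groups of values of the member probe sets, 1 sample stood far from the rest of its group, where chance gives about 1.1. The dimmer Cbs probe set read 8.89 in Gsr-null sample 2, while its group otherwise spanned 7.36 to 7.88. Mpst read 4.78 in WT sample 1, while the remaining WT livers spanned 5.26 to 5.40. The second Sqor probe set read 1.62 in Gsr-null sample 1, while the remaining Gsr-null livers spanned 1.94 to 2.11, all of them near the floor of the arrays.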

How the results depend on the processing

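The causes of the changes were not tested except where fewer samples or another number of probe sets enter by construction. Of 219 values of the 10 tested member probe sets under alternatives, 191 had the sign and the call of the reported value. In 14, all of Csad, a call was lost with the direction kept, at -1.96 to -1.62, and 14 changed sign, all in uncalled genes close to 0. Cdo1 changed sign with array weights, at 0.0027, and without WT sample 2, and its range with 1 sample left out was -0.19 to 0.041. Suox, positive as reported, was -0.017 with the wide and narrow 3′ to 5′ gaps as a block, -0.073 with the gap as a covariate, -0.063 without Gsr-null samples 2 and 3 together. With 1 sample left out it ranged from -0.081 to 0.17 and was negative in 6 of 11 omissions. Tst, negative as reported, was 0.031 with the replicate block, and with 1 sample left out it ranged from -0.12 to 0.031 and was positive in 2 of 11 omissions.

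The count of 1 member called lower became 0 without a filter, with the filter at 6, with array weights, with the 3′ to 5′ gap as a covariate and with the replicate block (limma adjusted p of Csad 0.251), and was 0 to 1 with 1 sample left out. Over all probe sets, 16 were called higher and 21 lower. This became 7 and 7 with the filter at 6, 3 and 4 without Gsr-null samples 2 and 3, and 2 and 1 with the replicate block. With 1 sample left out, 9 to 21 were called higher and 5 to 19 lower. Replicate numbers gave no sign of pairing. Residuals of samples that share a number correlated at -0.243 to 0.036, and for 0 of 5 WT samples was the Gsr-null sample of its own number the best match. The block also drops Gsr-null sample 6.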

Other observations

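Lcn2, the acute phase protein lipocalin 2, was set beside Csad after both had been seen. In Gsr-null samples 1 to 6 Lcn2 read 13.0, 8.25, 10.3, 5.90, 7.50 and 12.6 on the log2 scale, and in WT samples 1 to 5 it read 5.79, 3.53, 5.56, 4.37 and 3.77. The 3 Gsr-null livers with the highest Lcn2, samples 1, 6 and 3, had the 3 lowest Csad values. Across the 6 Gsr-null samples Pearson's r was -0.66 (exact permutation p = 0.151) and Spearman's rho -0.77 (exact permutation p = 0.103), so neither passed 0.05. Since the pair was chosen after its values were seen, these p-values test no prior question. Without samples 1 and 4, farthest from the Lcn2 median, r was -0.76 over 4 samples, too few to show that it is steady.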
